A study of Homo sapiens with 9 samples.

Results

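The BTG/TOB family of antiproliferative genes was followed in the human myeloma cell line OPM-1, an established line of malignant plasma cells. It was taken here as the 6 rows of the count table whose symbol is BTG1, BTG2, BTG3, TOB1, TOB2 or CNOT7, out of 38478 gene rows. The first 5 are family genes, and CNOT7 encodes a deadenylase that they bind. The members were chosen by name, except that BTG1 was picked because it was higher in the libraries with both targeting RNAs. Its values are therefore a description, and no test of BTG1 is given in any comparison.

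Poly(A) RNA was sequenced in 9 strand-specific libraries, 3 from each of 3 groups, described by the submitters as separate biological replicates. Every group is the same line, labelled WT in genotype, and every group stably expressed a targeting RNA. The controls carried one against luciferase (gLuc), the second group one against FBXW7 (gFBXW7), and the third one against FBXW7 with one against KMT2D (gFBXW7_gKMT2D). FBXW7 is the substrate receptor of a ubiquitin ligase and KMT2D a histone H3 lysine methyltransferase. The labels do not say how the RNAs act, or whether each population is a clone or a pool. Libraries held 16337492 to 27076242 counts. All 10 plasma cell markers listed in the table were counted in all 9 libraries. Their sum was 11244 to 17262 CPM (counts scaled to a common library size after TMM normalisation), of which JCHAIN made 7766 to 13569. Of 16 markers of other cell types, 6 to 11 were at 0 in each library, and the sum of all 16 was 24.6 to 46.2 CPM, of which HBB made 21.8 to 43.7. FBXW7 ranged from 45.2 to 71.7 CPM and KMT2D from 28.6 to 107.0 CPM, with overlap between all groups, and gene counts cannot show a short edit of the coding sequence.

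As background, BTG and TOB proteins share an N-terminal domain that binds CNOT7 and its close relative CNOT8, which are among the catalytic subunits of the CCR4-NOT complex. CCR4-NOT shortens the poly(A) tails of messenger RNAs, which starts their decay, and the TOB proteins also bind the poly(A)-binding protein PABPC1. Raised levels of the family slow the cell cycle in many cell types. BTG1 and BTG2 are abundant in resting lymphocytes and are recurrently mutated in B cell lymphoma. FOXO factors are known to induce BTG1, and p53 and mitogenic signals are known to induce BTG2.

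The promoters of BTG1 and BTG2 are printed because these close relatives had different patterns across the 3 groups. Each line is the 250 bases before the RefSeq transcription start on GRCh38.p14, written 5′ to 3′ on the strand of the gene. Capitals mark the TATA box letters TATAAA, the CCAAT box and the FOXO-type letters TGTTTAC, each searched on both strands. BTG1 is on the minus strand at chr12:92145847-92146096 and BTG2 on the plus strand at chr1:203305269-203305518. GENCODE starts transcription at 92145897 for BTG1 and 203305491 for BTG2, inside these windows. The bases nearest the RefSeq start, TATAAA of BTG1 among them, thus lie within the genes as GENCODE places them.
BTG1: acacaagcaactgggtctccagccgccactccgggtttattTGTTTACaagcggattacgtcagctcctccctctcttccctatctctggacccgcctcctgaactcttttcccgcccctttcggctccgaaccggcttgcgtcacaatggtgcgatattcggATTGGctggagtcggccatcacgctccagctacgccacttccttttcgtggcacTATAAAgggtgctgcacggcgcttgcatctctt
BTG2: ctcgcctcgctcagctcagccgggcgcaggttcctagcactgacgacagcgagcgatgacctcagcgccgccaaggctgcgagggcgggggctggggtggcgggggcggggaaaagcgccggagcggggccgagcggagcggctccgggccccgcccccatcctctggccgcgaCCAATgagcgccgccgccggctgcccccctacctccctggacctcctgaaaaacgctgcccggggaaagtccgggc
BTG1 held TGTTTAC at -209 to -203, CCAAT on the opposite strand at -87 to -83, and TATAAA at -33 to -28 from the start. BTG2 held CCAAT at -76 to -72 and neither of the other two, and its window was richer in G and C, with 74.8% against 56.4% in BTG1. No marked matches overlapped. Among the 35116 windows of this length in the table, 2.98% held TGTTTAC, 10.7% TATAAA and 32% CCAAT. The windows of BTG3, TOB1 and TOB2 held neither TGTTTAC nor TATAAA, and CCAAT was also in 1 of the windows of TOB1. In all, 8 motifs were searched, and the other 5 are not in capitals. The cyclic AMP response half-site TGACG, in 21.2% of all windows, was in BTG1, BTG2 and 1 window of TOB1, and the GC box GGGCGG, in 42.6%, was in all of the 5 genes, though not in every window of TOB1. The full cyclic AMP response element TGACGTCA (1.65% of all windows, and containing TGACG), the E box CACGTG (6.34%) and the p53 half-site (5.57%) were in none of the 5 genes. A match describes letters and is not a binding site, and a missing match says only that the letters are not in this window.

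BTG1, which binds CNOT7 and CNOT8 and the methyltransferase PRMT1, was higher in the libraries with both RNAs than in all the others. The gene lies on chromosome 12 from 92140278 to 92145897 (GRCh38, GENCODE, minus strand). BTG1 had 125.4, 137.9 and 116.7 CPM in gLuc replicates 1, 2 and 3. It had 138.6, 129.7 and 135.9 CPM in gFBXW7, which overlapped gLuc. In gFBXW7_gKMT2D it had 191.5, 166.3 and 197.3 CPM, so that even the lowest of these lay above the highest of the other 6 libraries. Group means were 126.7 ± 10.7, 134.7 ± 4.57 and 185.0 ± 16.5 CPM (SD, n = 3). The log2 fold change of BTG1 was 0.55 in gFBXW7_gKMT2D against gLuc, a 1.46-fold higher level. It was 0.46 against gFBXW7 and 0.09 in gFBXW7 against gLuc. These comparisons share libraries, and in bulk RNA a higher level per cell and more cells with the transcript cannot be told apart. Groups that do not overlap, with gFBXW7_gKMT2D higher, were seen for 3.28% of the 13262 genes tested against gLuc and for 4.35% against gFBXW7, and nothing is read from this for BTG1, which the rule picked.

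BTG2 is the closest relative of BTG1, an early response gene and known p53 target, and was the most abundant member. It lies on chromosome 1 from 203305491 to 203309602 on the plus strand. It had 255.6, 281.6 and 284.7 CPM in gLuc and 231.5, 265.3 and 272.7 CPM in gFBXW7. In gFBXW7_gKMT2D it had 243.7, 264.7 and 192.0 CPM, with replicate 3 the lowest of all 9 libraries and the other two within the range of gFBXW7. The log2 fold change of BTG2 in gFBXW7_gKMT2D against gLuc was -0.23 (SE 0.15, 95% interval -0.57 to 0.11, edgeR adjusted p = 0.90). The interval leaves room for a level from 0.675 to 1.08 times that of gLuc. Without gFBXW7_gKMT2D replicate 3 the value was -0.11.

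BTG3, the more distant BTG protein, lies on chromosome 21 from 17593653 to 17612947 on the minus strand. It had 33.2, 33.0 and 33.8 CPM in gLuc, the smallest relative spread of any group of any member. In gFBXW7 it had 37.5, 30.2 and 29.5 CPM, and the libraries with both RNAs had 30.6, 32.2 and 28.3 CPM. All 3 gFBXW7_gKMT2D libraries lay below all 3 gLuc libraries, as they did for 3.69% of all tested genes, but not below those of gFBXW7. Against gLuc, BTG3 had a log2 fold change of -0.13 (SE 0.13, 95% interval -0.42 to 0.16, edgeR adjusted p = 0.90). It was -0.08 without gFBXW7_gKMT2D replicate 3.

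TOB1 and TOB2 encode the TOB proteins, which bind the poly(A)-binding protein PABPC1. TOB1 (chromosome 17, 50862223 to 50867978, minus strand) had 31.9, 36.4 and 34.3 CPM in gLuc and 32.3, 33.7 and 36.8 CPM in gFBXW7. In gFBXW7_gKMT2D it had 37.4, 36.0 and 42.8 CPM, with replicate 3 the highest of the 9 and replicate 2 within the range of the controls. The log2 fold change of TOB1 in gFBXW7_gKMT2D was 0.18 (SE 0.12, 95% interval -0.10 to 0.46, edgeR adjusted p = 0.90) against gLuc and 0.17 (SE 0.12, 95% interval -0.10 to 0.45, edgeR unadjusted p = 0.19, adjusted p near 1) against gFBXW7. Without gFBXW7_gKMT2D replicate 3 these values of TOB1 were 0.11 and 0.10. TOB2 (chromosome 22, 41433492 to 41447023, minus strand) had 52.4, 61.0 and 65.2 CPM in gLuc and 49.5, 58.0 and 57.2 CPM in gFBXW7. In gFBXW7_gKMT2D it had 50.2, 65.1 and 37.0 CPM, so this group alone held both a level near the highest and the lowest of all 9. Against gLuc, TOB2 had a log2 fold change of -0.23 (SE 0.20, 95% interval -0.66 to 0.21, edgeR adjusted p = 0.90). Without gFBXW7_gKMT2D replicate 3 it was -0.04, and without replicate 2 it was -0.45.

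CNOT7 (chromosome 8, 17224964 to 17246878, minus strand), the catalytic partner, had 141.2, 159.0 and 148.2 CPM in gLuc and 153.7, 136.2 and 153.9 CPM in gFBXW7. In gFBXW7_gKMT2D it had 148.2, 142.7 and 180.8 CPM, with replicate 3 above all the others. Against gLuc, CNOT7 had a log2 fold change of 0.07 (SE 0.13, 95% interval -0.23 to 0.37, edgeR adjusted p = 0.91), an interval from 0.855 to 1.29 times the control level. Without gFBXW7_gKMT2D replicate 3 it was -0.04, and without replicate 2 of that group 0.14.

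**Figure D1:**
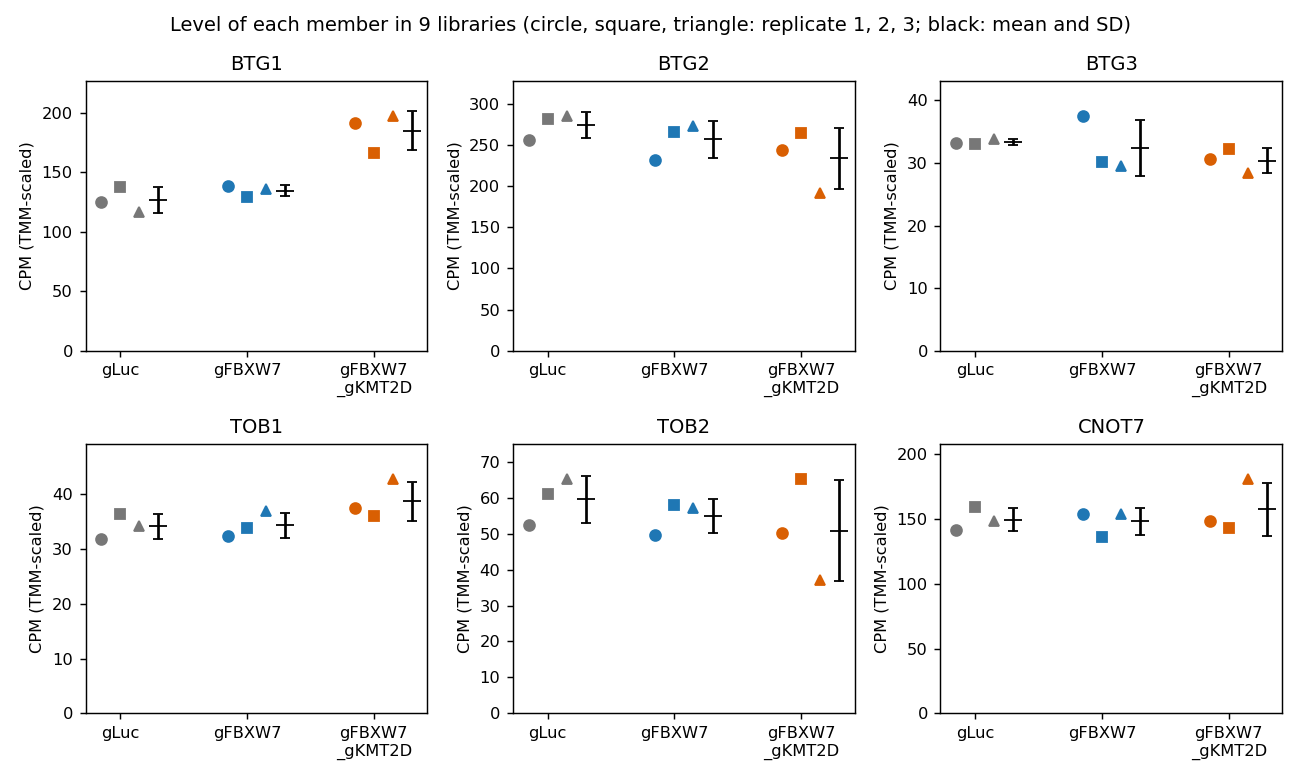
Level of each member in CPM (vertical axes from 0) in the 3 libraries of each group, with circle, square and triangle for replicates 1, 2 and 3 and a black bar for the mean and SD (n = 3). In BTG1 the 3 gFBXW7_gKMT2D libraries (166.3 to 197.3 CPM) lie above the other 6, while in the other 5 members the groups overlap, except BTG3 between gFBXW7_gKMT2D and gLuc.

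With BTG1 set aside, 0 of the 5 tested members passed an adjusted p of 0.05 in edgeR's quasi-likelihood test in any of the 3 comparisons. At an unadjusted p under 0.05 the count was also 0 of 5 in each, and DESeq2, limma-voom and limma on RPKM called 0 of 5. Over all 13262 tested genes the shares called were 0.0528% in gFBXW7_gKMT2D against gLuc, 0.0603% in gFBXW7_gKMT2D against gFBXW7 and 0% in gFBXW7 against gLuc. The shares at an unadjusted p under 0.05 were 3.61%, 4.22% and 1.58% in the same order. Groups that do not overlap, in either direction, were seen for 6.97%, 9.55% and 8.86% of all tested genes, and of the 5 members only BTG3 against gLuc was among them. Of these genes, 5.2% of all tested were lower in gFBXW7_gKMT2D than in gFBXW7, and 4.37% were higher and 4.49% lower in gFBXW7 than in gLuc. The shares past the adjusted threshold are so low that a count of 0 of 5 says nothing particular about the members. The FBXW7-targeting RNA alone went with small differences from gLuc in all 5, with log2 fold changes of -0.10 for BTG2 (95% interval -0.43 to 0.24), -0.04 for BTG3 (-0.33 to 0.25), 0.01 for TOB1 (-0.27 to 0.28), -0.12 for TOB2 (-0.55 to 0.32) and -0.01 for CNOT7 (-0.31 to 0.28). Against gFBXW7, the libraries with both RNAs had log2 fold changes of -0.14 for BTG2 (-0.47 to 0.20), -0.09 for BTG3 (-0.38 to 0.20), -0.11 for TOB2 (-0.55 to 0.33) and 0.09 for CNOT7 (-0.21 to 0.39). Missing the threshold does not show that the levels were equal.

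**Figure D2:**
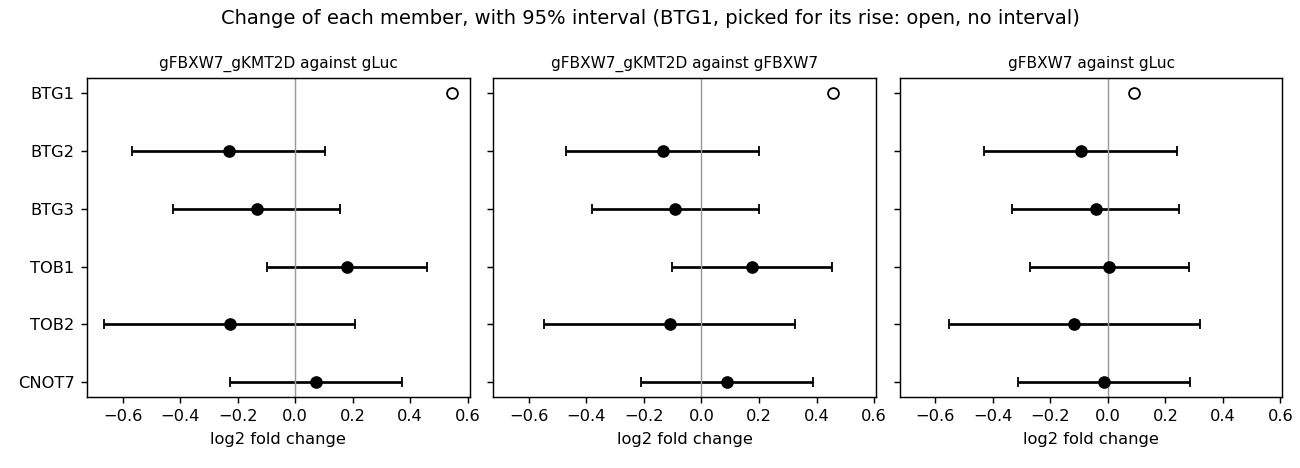
Log2 fold change (horizontal axis) of each member in the 3 comparisons, with 95% intervals from the fit of all 9 libraries. BTG1 (open circles, no interval because it was picked for its rise) stands at 0.55, 0.46 and 0.09, and every interval of the other 5 members includes 0.

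Levels of different genes were compared as RPKM (reads scaled by gene length and library total). BTG2 stood first, with 60.4 to 112.0 RPKM over the 9 libraries, then BTG1 with 26.0 to 40.9 and CNOT7 with 18.1 to 22.0. TOB1 had 12.3 to 15.6 and BTG3 9.67 to 14.5 RPKM, and these neighbours did not differ beyond their spread, with TOB1 the higher in 7 of 9 libraries. TOB2 stood last with 3.94 to 8.83 RPKM. Each of the other four neighbouring pairs kept its order in 9 of 9 libraries, and their ranges did not overlap. TOB2 had more reads than TOB1 in all libraries but gFBXW7_gKMT2D replicate 3 (516 against 596 counts), but is 8020 bases long in the table against 2521, so TOB1 was the higher by length, 1.67 to 3.67 times.

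The makeup of the 5 BTG and TOB transcripts is described here by shares whose sum contains BTG1, so a higher BTG1 lowers the share of BTG2. BTG1 made up 15.1% to 17.5% of their summed RPKM in gLuc, 17.5% to 19.9% in gFBXW7 and 21.1% to 28.9% in gFBXW7_gKMT2D. BTG2 made up 61.4% to 63.6%, 57.3% to 61.8% and 48.5% to 57.9% in the same order, with gFBXW7 overlapping both other groups. The ratio of BTG2 to BTG1 in RPKM was 3.52 to 4.21 in gLuc, 2.88 to 3.53 in gFBXW7 and 1.68 to 2.75 in gFBXW7_gKMT2D. These shares and ratios contain BTG1, which was picked for its rise, and are given without a test.

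**Figure D3:**
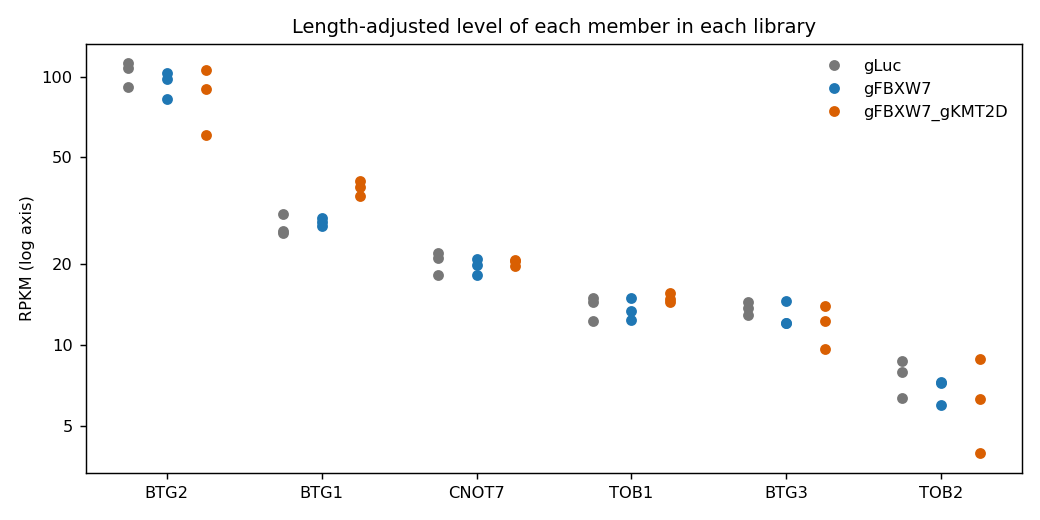
RPKM on a log axis for each member in each library, coloured by group, in falling order from BTG2 to TOB2. BTG2 is highest in all 9 libraries, TOB1 and BTG3 overlap, and TOB2 is lowest throughout with 3.94 to 8.83 RPKM.

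Libraries of 1 group differed in how much signal fell on long genes, and this moved with some members. For each library the median deviation of the 2688 tested genes of up to 2000 bases was subtracted from that of the 2782 genes of at least 7000 bases, on the log2 CPM scale. The difference was -0.27, 0.24 and 0.59 in gLuc, -0.26, -0.09 and -0.02 in gFBXW7, and -0.16, 0.52 and -0.58 in gFBXW7_gKMT2D. The last group thus held a library near each end. TOB2, at 8020 bases, was lowest where this measure was lowest and next to highest where it was next to highest. CNOT7, at 7511 bases, was instead highest in gFBXW7_gKMT2D replicate 3. BTG1, at 4680 bases, deviated from its own mean by 0.39, 0.18 and 0.43 in gFBXW7_gKMT2D replicates 1, 2 and 3. Within that group it was thus lower where the measure was higher. Ribosomal protein genes took 11.2% of the counts in gFBXW7_gKMT2D replicate 3 and 5.03% to 8.56% in the others, and mitochondrial transcripts took 2.04% to 3.67% in gFBXW7_gKMT2D, 0.638% to 1.54% in gFBXW7 and 1.64% to 3.33% in gLuc. The part of these library differences in the member values was not tested. With the gene length trend of each library removed, the log2 fold change of BTG1 against gLuc was 0.61 and that of TOB2 was -0.16. With gFBXW7_gKMT2D replicate 3 and gLuc replicate 3 both left out, BTG1 was 0.44 and TOB2 0.03. Both settings were added after the data were seen, and BTG1 was picked for its rise in these same libraries. These values are therefore description only.

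**Figure D4:**
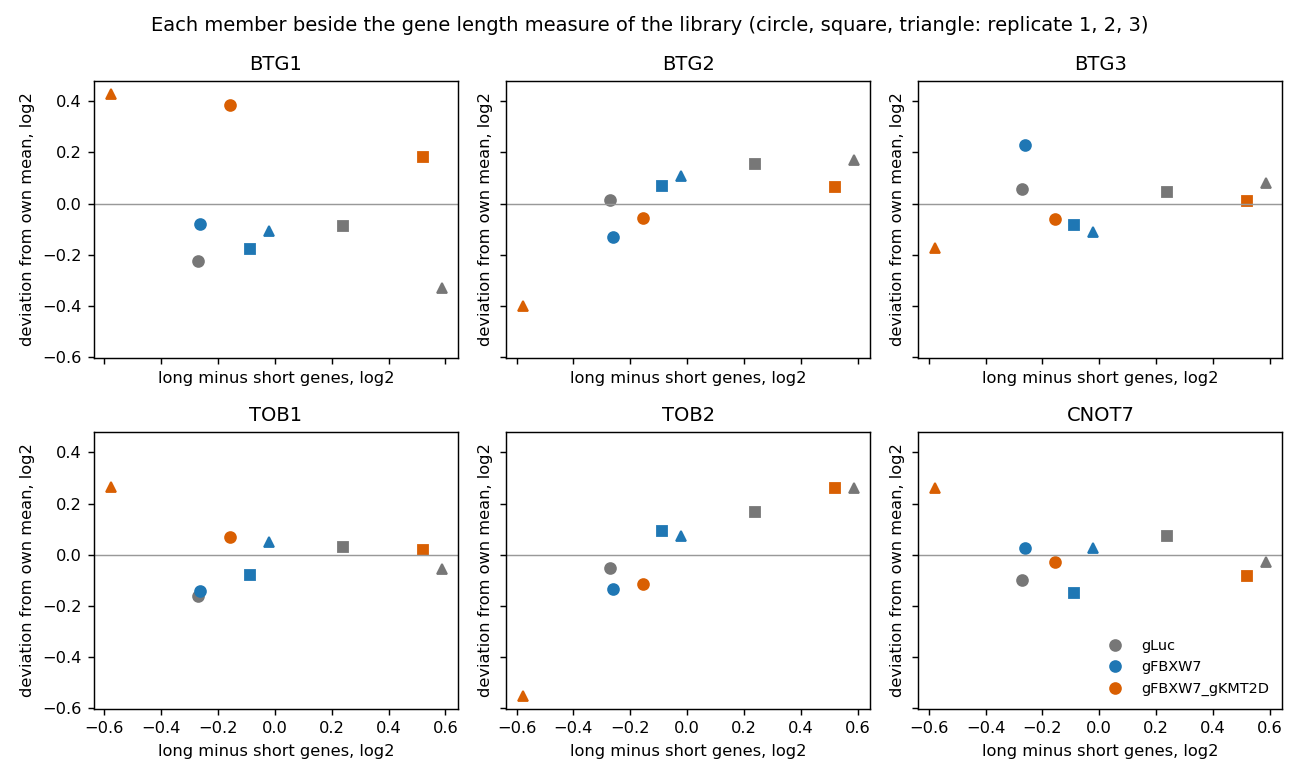
Deviation of each member from its own mean over 9 libraries (vertical axis, log2) against the long-minus-short gene measure of the library (horizontal axis, log2), coloured by group. TOB2 runs from its lowest point at -0.58 to its highest points at 0.52 and 0.59. The 3 gFBXW7_gKMT2D points of BTG1 stand at deviations of 0.43, 0.39 and 0.18, at measures of -0.58, -0.16 and 0.52.

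The CCR4-NOT subunits, to which the family recruits messages, showed no called change. Over all tested genes, edgeR called 0.0528% in gFBXW7_gKMT2D against gLuc, 0.0603% in gFBXW7_gKMT2D against gFBXW7 and 0% in gFBXW7 against gLuc. The shares at an unadjusted p under 0.05 were 3.61%, 4.22% and 1.58% in the same order. At such shares, a count of 0 in a list this short says nothing particular about the complex. Of 12 tested subunits and partners, CNOT7 among them, 0 were called higher and 0 lower in any comparison by edgeR, with 0 at an unadjusted p under 0.05, and DESeq2, limma-voom and limma on RPKM also called 0. Their median log2 fold change was -0.11 in gFBXW7_gKMT2D against gLuc, -0.04 against gFBXW7 and -0.08 in gFBXW7 against gLuc, beside medians over all tested genes of 0.00, 0.02 and -0.00. CNOT8, the close relative of CNOT7, held 9.50 to 11.6 RPKM, and the ratio of CNOT7 to CNOT8 was 1.67 to 1.99 in gLuc, 1.67 to 1.81 in gFBXW7 and 1.82 to 2.16 in gFBXW7_gKMT2D. CNOT9, an RNA-binding and adaptor subunit, had the highest median level with 30.3 to 51.7 RPKM, and its log2 fold change against gLuc was -0.20 (SE 0.13, edgeR adjusted p = 0.90), or -0.12 without gFBXW7_gKMT2D replicate 3.

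CNOT1, the scaffold that holds the deadenylases, varied more than any other subunit. It had 111.0, 239.1 and 380.0 CPM in gLuc and 111.7, 174.4 and 165.9 CPM in gFBXW7. In gFBXW7_gKMT2D it had 151.8, 345.4 and 41.5 CPM, the last of these from 578 counts. Its lowest and highest libraries, which differ 11.5-fold in RPKM, are those at the ends of the long-minus-short measure, and CNOT1 is 9113 bases long in the table. The log2 fold change of CNOT1 was -0.44 (SE 0.64, edgeR adjusted p = 0.90) in gFBXW7_gKMT2D against gLuc, within its spread. It was 0.03 without gFBXW7_gKMT2D replicate 3, -1.33 without gFBXW7_gKMT2D replicate 2, -0.78 without gLuc replicate 1 and 0.05 without gLuc replicate 3. CNOT3 held 9 to 49 counts on a listed length of 29805 bases, so its level is not compared.

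Genes on either side of CCR4-NOT were also without a call in edgeR, DESeq2, limma-voom and limma on RPKM, in any comparison. Of all tested genes, 0.0528% were called by edgeR in gFBXW7_gKMT2D against gLuc, and 3.61% had an unadjusted p under 0.05. Beside these shares, the small counts that follow say nothing particular about the lists. Of 9 tested genes of other deadenylases and poly(A)-binding proteins, 0 had an unadjusted p under 0.05. PABPC1, the tail-binding partner of the TOB proteins, had a log2 fold change of 0.42 (SE 0.28, edgeR adjusted p = 0.90) in gFBXW7_gKMT2D against gLuc, carried by replicate 3 at 3252 CPM, and -0.02 without it. Of 17 RNA-binding recruiters of CCR4-NOT, 1 had an unadjusted p under 0.05 in gFBXW7_gKMT2D against gLuc, and the abundant m6A reader YTHDF2 and Pumilio protein PUM2 had 0.08 (SE 0.14) and -0.17 (SE 0.22). Of 10 genes of decapping and 5′ decay, 0 had an unadjusted p under 0.05, with DDX6 at -0.40 (SE 0.24) and EDC4 at -0.18 (SE 0.23). Of 11 signalling partners, 1 had such a p, with PRMT1 at 0.10 (SE 0.14) and the cyclin gene CCND2 at -0.27 (SE 0.17). Without gFBXW7_gKMT2D replicate 3, YTHDF2 was at -0.03, PUM2 at -0.01, DDX6 at -0.21, EDC4 at 0.07 and PRMT1 at 0.06. CCND2 was at -0.14 without gLuc replicate 3.

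Gene lists around the known inducers of BTG1 and BTG2, from which the members were kept out, had 0 genes called by edgeR in any comparison. DESeq2, limma-voom and limma on RPKM also called 0. With 0.0528%, 0.0603% and 0% of all tested genes called by edgeR in the 3 comparisons, this says nothing particular about the lists. At an unadjusted p under 0.05 the shares of all tested genes were 3.61% in gFBXW7_gKMT2D against gLuc, 4.22% in gFBXW7_gKMT2D against gFBXW7 and 1.58% in gFBXW7 against gLuc. The counts of the lists were not tested against these shares. Of 16 FOXO targets, 5 were above and 11 below 0 in gFBXW7_gKMT2D against gLuc, with a median of -0.10 and 0 genes at an unadjusted p under 0.05. Among them, the cell cycle inhibitor CDKN1B had a log2 fold change of -0.37 (SE 0.22) and KLF6 of 0.29 (SE 0.27), which became -0.13 and -0.10 without gFBXW7_gKMT2D replicate 3. Of 18 p53 targets, the median was 0.05, with 1 higher and 2 lower at an unadjusted p under 0.05, and the most abundant were CCNG1 at 0.19 (SE 0.18) and MDM2 at -0.30 (SE 0.13), which became -0.03 and -0.20 without that library. Of 18 immediate early genes, which handling also raises, the median was 0.14 with 3 higher at an unadjusted p under 0.05, MYC at 0.07 (SE 0.13) and JUND at 0.12 (SE 0.31), or -0.30 without the same library. The early gene median was 0.28 in gFBXW7 against gLuc, with 14 of 18 above 0 and 3 higher at an unadjusted p under 0.05. It was 0.04 in gFBXW7_gKMT2D against gFBXW7, with 1 higher and 2 lower at such a p. MYC was the 1 higher, at 0.31 (SE 0.13, edgeR unadjusted p = 0.041, not called). In gFBXW7 against gLuc, MYC was at -0.23 (SE 0.13). With 1 surrogate variable in the model, TP53INP1 was called lower and EGR1 higher in gFBXW7_gKMT2D against gLuc, and TP53INP1 was also called lower against gFBXW7. That model called 54 genes against gLuc and 125 against gFBXW7, where the reported fit called 7 and 8. EGR1 was low, at 0.95 to 4.04 CPM over the libraries. Of 20 transcripts of cycling cells, the median was -0.05 with 0 at an unadjusted p under 0.05, and MCM4 and RRM2 had 0.23 (SE 0.22) and -0.13 (SE 0.14). They had -0.08 and -0.05 without gFBXW7_gKMT2D replicate 3, where MCM4 stood at 1037 CPM.

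Among 7668 other genes with a symbol and a mean log2 CPM of at least 4, those most like BTG1 over the 9 libraries were CCNB1IP1 (Pearson r = 0.95), TCFL5 (0.94), CLK1 (0.94), ARL2BP (0.92) and PIGT (0.92). CLK1 encodes a kinase of splicing factors and PIGT a subunit of the GPI anchor transamidase. CCNB1IP1 had 17.8 to 22.8 CPM in gFBXW7_gKMT2D and 12.9 to 16.8 CPM elsewhere. This order follows from the choice of genes by their likeness to BTG1, itself picked for it, and is no result. The genes most like BTG2 were PPWD1 (0.99) and FEM1A (0.98), those most like BTG3 SLC33A1 (0.94) and MFN1 (0.90), and those most like TOB1 MRPS36 (0.96) and TAOK3 (0.96). DLG5 (0.99) and CHSY1 (0.99) were most like TOB2, and PTPN2 (0.97) and BCKDHB (0.97) most like CNOT7. These are descriptions over libraries that share depth and gene length differences.

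Some genes annotated over the members, and a pseudogene, were also counted. LINC01619, on the same strand across BTG1, held 1 to 13 counts, the antisense TOB1-AS1 held 11 to 40, and the pseudogene TOB2P1 held 7 to 26. VPS37A, which overlaps CNOT7 on the opposite strand, held 387 to 1089 counts. The strand setting of the counting is not given in the sources used here, so reads where VPS37A and CNOT7 overlap are uncertain. The antisense genes AC025164.1 over BTG1 and BTG3-AS1 over BTG3 had no row under these names in the count table. BTG4, an oocyte member of the family outside the 6, had 0 to 4 counts in each library.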

How the data were processed

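Per the labels' protocols, column-purified RNA was poly(A) selected and made into dUTP strand-specific libraries. The build GRCh38 and the tools STAR, featureCounts, DESeq2 and Trimmomatic are named, without versions or settings, in the submitters' processing notes. Per the file headers, the deposited table holds raw read counts and RPKM values by the authors. Recomputing RPKM from the other columns left differences of at most 8.5e-07 of the value. One unnamed row equal to each library's total was left out.

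All 9 libraries were fitted at once in edgeR 4.0.16 (R 4.3.3): filterByExpr by group (13262 genes), TMM, glmQLFit and glmQLFTest on the 3 groups without covariates, and Benjamini-Hochberg adjustment over all tested genes with a threshold of 0.05. Each SE was derived from the F statistic. Log2 CPM used a prior count of 2. P-values measure the spread between the libraries of a group, and no 2 replicates were as close as counting error alone would make them (chi-squared over its degrees of freedom at least 6.66). The code was tested on simulated data. Alternatives used DESeq2 1.42.0, limma 3.58.1 (voom, and log2 of RPKM plus 1), sva 3.50.0, other scalings and filters, the replicate block and left-out libraries. The removal of the gene length trend (lowess, span 0.3), the omission of 2 libraries together and the gene length measure were added after the data were seen. The numbers of the replicates were not taken to pair libraries across groups in the reported fit.

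Members and gene lists were chosen with earlier results of these data known. Named beside the members are called genes of each list, or else its 2 most abundant tested genes, the genes most like each member (5 for BTG1, 2 for each other), and genes said to be outside this rule. CNOT8, CNOT3, TP53INP1, EGR1, BTG4 and the overlapping genes were named after their values were seen. Promoters are from RefSeq, GRCh38.p14, in which 5 of the 5 members looked for were found, and coordinates are 1-based from GENCODE on GRCh38. Figures were made with Python 3.11.15 and matplotlib 3.10.9.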

Additional observations from a re-analysis of the deposited data

How the results depend on the processing

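The count of tested members past the threshold was 0 of 5 in all 3 comparisons under all 21 alternatives. Under them BTG1 in gFBXW7_gKMT2D had log2 fold changes of 0.44 to 0.62 against gLuc and 0.41 to 0.53 against gFBXW7. It was picked for this rise in the same libraries, so the shared sign is no support for it. Of 315 values of the 5 tested members under alternatives, 294 kept their sign and 21 turned it. In gFBXW7_gKMT2D against gLuc, CNOT7 was 0.00 with limma on RPKM, and with gFBXW7_gKMT2D replicate 3 and gLuc replicate 3 both left out TOB2 was 0.03 and CNOT7 -0.05. With both left out, TOB2 was 0.07 and CNOT7 -0.02 against gFBXW7. In gFBXW7 against gLuc, TOB1 was -0.03 with limma on RPKM, -0.02 with 1 surrogate variable and -0.07 with the gene length trend removed, TOB2 was 0.04 with 1 surrogate variable and 0.00 with the trend removed, and CNOT7 was 0.09 with the trend removed. With single libraries left out, the values that turned sign in gFBXW7_gKMT2D against gLuc were those of CNOT7 (-0.04 to 0.14), against gFBXW7 those of BTG3 (-0.16 to 0.03), TOB2 (-0.33 to 0.08) and CNOT7 (-0.02 to 0.15), and in gFBXW7 against gLuc those of BTG3 (-0.16 to 0.02), TOB1 (-0.05 to 0.05) and CNOT7 (-0.05 to 0.03). The number of genes called in gFBXW7_gKMT2D against gLuc, 7 in the reported fit, was 21 with no filter, 20 with DESeq2, 4 with limma on RPKM, 2 with the 6 compared libraries alone, 2 with the replicate block and 54 with 1 surrogate variable. Against gFBXW7 it was 8, and 33, 31, 3, 0, 2 and 125 in the same order, with 5 under upper quartile scaling, with the gene length trend removed or with both libraries left out. In gFBXW7 against gLuc it was 0 and became 1 with DESeq2. With single libraries left out these counts ran from 2 to 8 against gLuc and from 0 to 7 against gFBXW7. The causes were not tested. Same-numbered libraries of gFBXW7_gKMT2D and the other groups had correlations of their deviations from -0.59 to 0.23. In each of these comparisons 1 of 6 libraries was closest to its own number. Between gFBXW7 and gLuc the correlations were 0.45, 0.02 and 0.35, with 4 of 6 libraries closest to their own number. The block is therefore not taken as a pairing across all groups, and a shared batch of gFBXW7 and gLuc was not tested.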

Other observations

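A pair of further genes near the family's function were chosen after their values were seen, so their p-values are no independent support. ZFP36L1, an RNA-binding protein that brings CCR4-NOT to AU-rich messages, stood at 109.1, 102.6 and 93.2 CPM in the controls. The gFBXW7 libraries held 102.5, 113.1 and 106.5 CPM. With both RNAs the values were 119.7, 123.6 and 181.3 CPM, above those of the other 6 libraries. In gFBXW7_gKMT2D against gLuc this is a log2 fold change of 0.48 (SE 0.17, edgeR adjusted p = 0.90), or 0.26 without gFBXW7_gKMT2D replicate 3. CDKN1A, the cell cycle inhibitor p21, was near the lower limit of detection at 1.19 to 1.48 CPM in the controls, 1.83 to 2.38 CPM with the FBXW7 RNA and 1.94 to 3.54 CPM with both. It had log2 fold changes of 1.05 (SE 0.25, edgeR adjusted p = 0.77) in gFBXW7_gKMT2D against gLuc and 0.65 (SE 0.26, edgeR adjusted p = 0.96) in gFBXW7 against gLuc, comparisons that share the gLuc libraries.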
